A study of Mus musculus with 4 samples.

Results

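Gata4 ChIP-seq of mesoderm cells gave 1455 strong distal peaks in WT cells at which no peak was listed in cells without *Dnmt3a* and *Dnmt3b*. They are 1455 of the 20410 peaks of the WT list, and of the 43143 peaks of the WT and DKO lists together. The members were chosen by 3 measured values: a height of 10 or more in the WT Flk1(+) library, no DKO peak within 500 bp of the position, and no RefSeq gene start listed within 1000 bp. Of the WT peaks, 15069 had no start within 1000 bp, and 4494 of these reached a height of 10. The members were 32.4% of those 4494 peaks, against 64.4% without a DKO peak among distal WT peaks of any height, and as the rule made both counts they stand as a description. The other 3039 strong distal WT peaks, called shared here, had a DKO peak within 500 bp and are the main comparison.

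The 4 conditions had 1 library each, so no value below has a replicate, every comparison between genotypes describes 2 libraries, and no p-value was computed. WT Flk1(+) cells were mesoderm progenitors made from J1 ES cells (129 background) by co-culture on OP9 stroma cells to day 4.5, treated with 100 nM dexamethasone (Dex) for 3 hr and sorted on magnetic columns for Flk1, a receptor for vascular endothelial growth factor. DKO Flk1(+) cells were treated alike and carry *Dnmt3a*-/- and *Dnmt3b*-/- alleles. WT ES and DKO ES cells, which were kept undifferentiated and without Dex, served as the background of the same genotype. All carry Gata4GR, in which Gata4 is joined to the hormone-responsive part of the glucocorticoid receptor, so that Dex switches it on, and which the ubiquitous CAG promoter drives. Each genotype is a single clone, named J1G4.2 on the WT label (J1G4.211 in the methods of the study) and 16G4.3 on the DKO label, so a difference between clones cannot be told apart from a difference between genotypes. A mixture of 3 antibodies against Gata4 was used, and the peak lists hold no expression values, so the sorted cell type was not checked against its markers.

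Gata4 is a zinc-finger transcription factor that binds the letters GATA and has roles in the heart and in the endoderm. Distal regulatory regions (enhancers) lie away from gene starts and often hold binding sites of several factors. Dnmt3a and Dnmt3b place new methyl groups on the cytosine of CpG dinucleotides during differentiation, and cells without both enzymes lose methylation. Height is the authors' peak height in a smoothed profile of mapped reads, and the list gives it for the Flk1(+) and for the ES library, with their ratio (the enrichment). Whether it was scaled for depth is not given in the sources used here, and the study states more mapped reads for the DKO than for the WT Flk1(+) library. A listed peak had a height of at least 5 and at least 3 times the ES height (an ES height under 1 counted as 1). The caller also set a minimum for the ratio of confidently to repetitively mapped reads. A missing DKO peak thus means that no position nearby passed all 3 limits, and which one was missed and the DKO height at the members are not known here.

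The sequences below are the position of 9 members with 50 bases of mm9 to either side, read on the plus strand, with every WGATAA match (AGATAA or TGATAA, on either strand) in capitals. The first 5 belong to tall members and are shown for their matches near the position, single or in groups.
chr11:18857271-18857371, intron of *Meis1*, height 64.5: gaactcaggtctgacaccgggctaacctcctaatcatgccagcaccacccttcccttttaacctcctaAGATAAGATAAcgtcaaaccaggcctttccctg
chr3:93598013-93598113, near *Tdpoz4*, height 56.3: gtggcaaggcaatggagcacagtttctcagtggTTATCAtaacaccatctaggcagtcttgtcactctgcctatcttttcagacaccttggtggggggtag
chr3:92875278-92875378, near *Gm4858*, height 42.0: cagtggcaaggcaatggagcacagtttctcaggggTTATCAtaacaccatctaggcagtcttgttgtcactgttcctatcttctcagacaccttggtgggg
chr8:16059464-16059564, intron of *Csmd1*, height 37.4: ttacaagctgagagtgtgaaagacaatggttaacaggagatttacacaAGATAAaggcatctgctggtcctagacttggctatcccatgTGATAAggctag
chr11:52558271-52558371, near *Fstl4*, height 36.0: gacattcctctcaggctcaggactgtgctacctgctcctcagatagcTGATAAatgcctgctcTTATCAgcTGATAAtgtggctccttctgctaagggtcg

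The next 4 belong to members at blood and vessel genes, and are shown because each holds a whole match near the peak position.
chr15:103082158-103082258, intron of *Nfe2*: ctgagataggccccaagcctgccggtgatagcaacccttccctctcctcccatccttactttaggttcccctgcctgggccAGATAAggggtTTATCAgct
chr11:11627061-11627161, intron of *Ikzf1*: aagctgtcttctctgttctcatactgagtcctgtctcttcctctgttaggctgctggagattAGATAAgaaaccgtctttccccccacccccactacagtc
chr8:124817622-124817722, intron of *Zfpm1*: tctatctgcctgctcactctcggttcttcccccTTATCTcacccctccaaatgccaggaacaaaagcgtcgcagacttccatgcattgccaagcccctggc
chr16:95691683-95691783, intron of *Erg*: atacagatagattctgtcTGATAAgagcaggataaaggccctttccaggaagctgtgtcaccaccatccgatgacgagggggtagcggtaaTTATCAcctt

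Members were more often low than tall, with 706 of 1455 under a height of 12 and 97 at 20 or more. The lowest height was 10.0, the median 12.1 and the highest 816, and 427 of the 1455 members lay under 11. Just inside the limit of 10 were peaks of 10.0016, 10.0021 and 10.0065, and just outside it WT-only distal peaks of 9.99863, 9.99625 and 9.98544. The nearest DKO peak of the members just inside the limit of 500 bp lay 502, 505 and 509 bp away, and shared peaks just outside it had one at 479, 467 and 467 bp. The smallest distances to a listed gene start were 1046, 1056 and 1059 bp among members, and 1000, 985 and 975 bp among the peaks left out. Few peaks stood near the limit of 500 bp: only 37 members had a DKO peak within 1000 bp, and 2552 of the 3039 shared peaks had one within 50 bp.

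The share of strong distal WT peaks without a DKO peak was smaller the taller the WT peak. It was 51.7% (706 of 1365; 95% Wilson interval 49.1 to 54.4) at heights of 10 to 12, and 37.1% (433 of 1167; 34.4 to 39.9) at 12 to 15. At 15 to 20 it was 23.5% (219 of 931; 20.9 to 26.4), and at 20 or more 9.41% (97 of 1031; 7.77 to 11.3). Both the height and the missing DKO peak are values of the rule, so these shares are a description. The DKO heights of the shared peaks are known only because a DKO peak had passed the limit of 5, so they do not describe the DKO profile at the members. The median DKO height of the partner peak was 7.01 where the WT height was 10 to 12, and 12.7 where it was 20 or more. Partners under a DKO height of 6 made up 27.5% (181 of 659) of the shared peaks in the lowest class and 3.96% (37 of 934) in the highest. Since heights differ between members and shared peaks, the shares with WGATAA, T-box letters, AP-1 letters, the E-box and Gata pair, 20 or more CpGs, lower-case letters and an ES height of 5 or more were also compared by height class, as were those with 2 or more matches and with a match near the position, while most other shares were not.

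**Figure D1:**
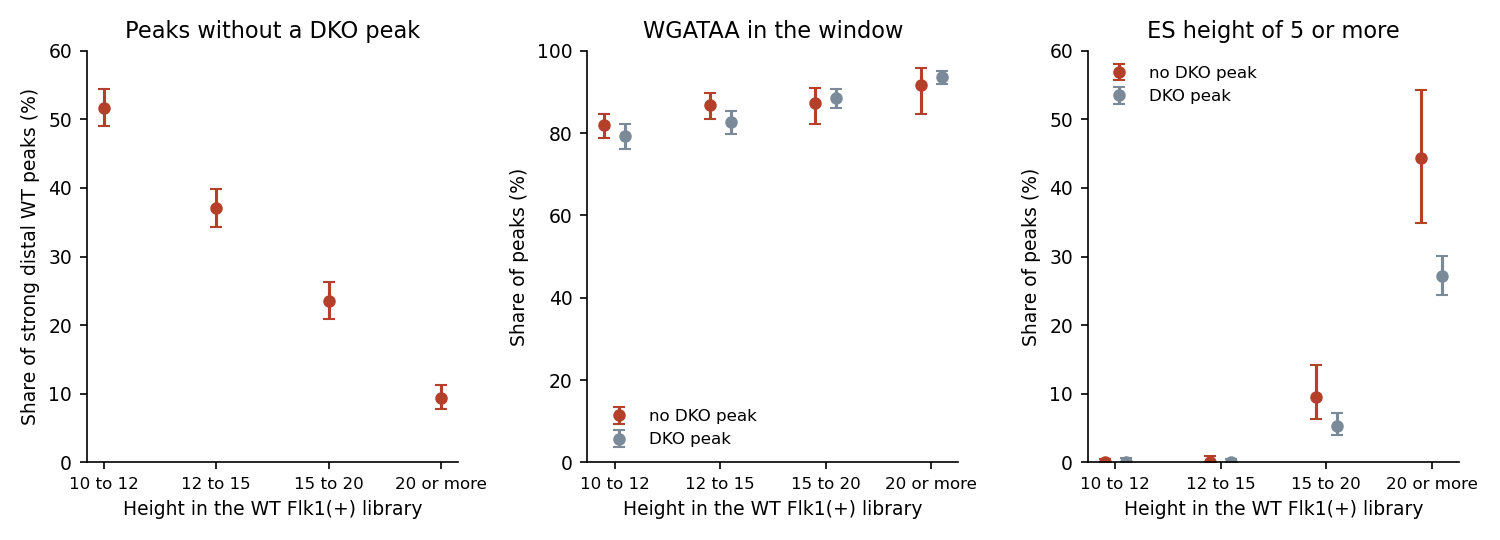
Shares of peaks by height in the WT Flk1(+) library (4 classes on the x axis, share in percent on the y axis) with 95% Wilson intervals as bars: strong distal WT peaks without a DKO peak (left), peaks with WGATAA in the window (middle) and peaks with an ES height of 5 or more (right), for members (no DKO peak) and shared peaks (DKO peak). The left share falls from 51.7% to 9.41%, the middle shares of members and shared peaks have overlapping intervals in all 4 classes, and the right intervals do not overlap at heights of 20 or more.

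The members showed the Gata motif nearly as often as the shared peaks. WGATAA was found in the 501-bp window of 84.8% of members (1234 of 1455; 82.9 to 86.6) and 86.7% of shared peaks (2635 of 3039; 85.5 to 87.9). The difference, members minus shared, was -1.90 percentage points (95% Newcombe interval -4.15 to 0.26). The interval includes 0, and it covers counting error over peaks of 1 library only. Under some other settings it lay below 0. These were a DKO limit of 250 bp (-2.90 points), an enrichment of 6 or more (-2.95) and the central 200 bp (-3.15). Within height classes the difference was 2.51 (-1.68 to 6.72) at 10 to 12, 4.14 (-0.21 to 8.22) at 12 to 15, -1.41 (-6.91 to 3.15) at 15 to 20 and -1.82 (-9.15 to 2.55) at 20 or more. Weighted by the members' own classes, it was 2.11 points, so that the sign of the pooled difference turned with this weighting. Other sets held the motif less often than the members. Of all WT windows 61.9% held it, and of all DKO windows 38.1%. The 8250 WT-only distal peaks under a height of 10 had it in 73.6%, 11.2 points below the members (9.03 to 13.2). Strong distal peaks of the DKO list were those of a height of 10 or more in the DKO Flk1(+) library, with no start listed within 1000 bp. The 545 of them without a WT peak within 500 bp had the motif in 65.0%, 19.9 points below the members (15.5 to 24.3). As the scaling of heights for depth is not known, a height of 10 may not be the same limit in both lists.

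The matches were placed at the middle of the windows. Of the 2354 WGATAA matches in members, 53.1% (51.1 to 55.1) lay within 50 bp of the peak position, where even placement gives 20.2%. In windows centred 2 kb to either side of the members the share was 21.1% (365 of 1727 matches). Shared peaks had 51.4% of their matches in the same 100 bp, a difference of 1.69 points (-0.72 to 4.09). Counted by windows with a match within 50 bp of the position, members minus shared was 0.39 points (-4.83 to 5.62) at heights of 10 to 12, 9.98 (4.22 to 15.6) at 12 to 15, -2.54 (-9.79 to 4.29) at 15 to 20 and -3.80 (-13.5 to 4.04) at 20 or more. Weighted by the members' classes it was 2.53 points. Matches in members were thus central, and the interval of the difference from shared peaks lay above 0 in 1 of the 4 height classes. Windows 2 kb away held a match in 43.0% (1252 of 2909). In the bin of 20 bp at the centre there were 18.7 matches per 100 member windows, 20.1 per 100 shared windows and 2.61 per 100 windows 2 kb from members.

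**Figure D2:**
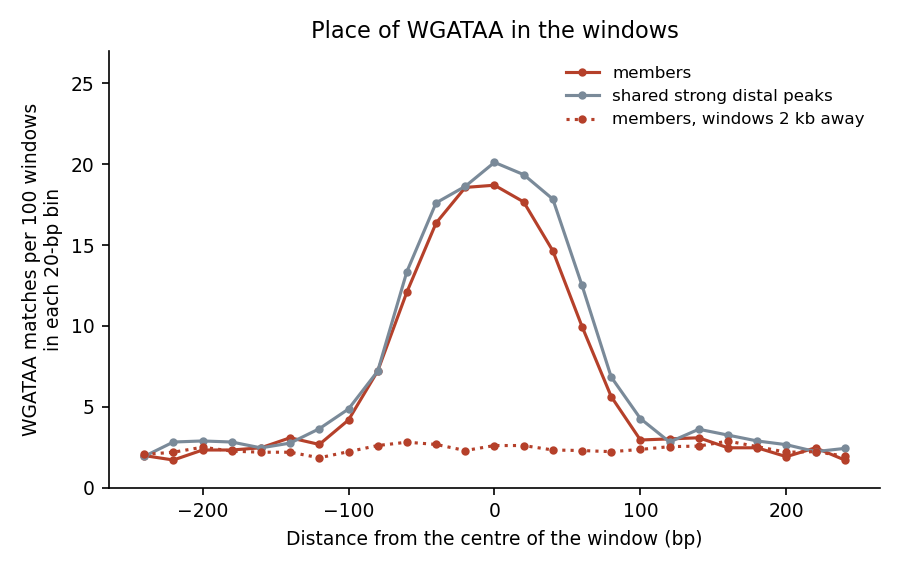
WGATAA matches per 100 windows in bins of 20 bp (y axis) by distance from the centre of the window in bp (x axis), for the 1455 members, the 3039 shared peaks and the windows 2 kb to either side of the members. Both peak sets rise to 18.7 and 20.1 matches per 100 windows at the centre, and the windows 2 kb away stay between 1.86 and 2.89.

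Members held fewer copies of the motif than shared peaks, with a median of 1 against 2 matches in the window. A single match was found in 526 members, 2 matches in 429, 3 in 174 and 4 in 86, and 19 members had 5 or more. At least 2 matches were present in 48.7% of members and 56.7% of shared peaks, a difference of -8.00 points (-11.1 to -4.88). Weighted by the members' height classes this difference was -1.03 points, and only at heights of 20 or more did its interval lie below 0 (-11.0 points; -21.3 to -1.30). The most matches in a window were 7, in 3 members. The one in an intron of *Pid1* (chr1:84211860, height 11.7) held all 7 within 50 bp of the position as a tandem repeat, the one 51.8 kb upstream of *Agmo* (chr12:37916455) had a height of 10.6, and the one upstream of *Cpeb4* (chr11:31745413) a height of 10.3. The next by number and height lay in an intron of *Tmem135* (chr7:96292665, 6 matches, height 14.8) and upstream of *Pabpc4l* (chr3:46695146, 6 matches, height 12.4).
chr1:84211810-84211910, intron of *Pid1*, shown for its tandem matches: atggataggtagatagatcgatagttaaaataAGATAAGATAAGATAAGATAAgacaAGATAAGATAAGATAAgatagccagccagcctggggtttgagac

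No WGATAA was found in 221 members. Of these, 188 (85.1%) held the 4 letters GATA on one strand or the other, and 110 (49.8%) held AGATAG or TGATAG. Neither share was computed for other peak sets or for windows 2 kb away, so these counts stand without a background. The wider motif WGATAR, which adds AGATAG and TGATAG, was present in 92.4% of members and 92.1% of shared peaks. By that motif the difference was 0.27 points (-1.47 to 1.88). Of all WT windows 71.8% held WGATAR, and of the windows 2 kb from members 62.1%.

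Among the 20 motifs searched on both strands, those of other factors differed from shared peaks by more than counting error in a few cases. The T-box letters AGGTGTGA, bound by factors such as Brachyury and Tbx5, were found in 7.56% of members (110) and 4.97% of shared peaks (151), a difference of 2.59 points (1.09 to 4.23). The member share was higher in all 4 height classes, with differences of 3.00, 4.28, 2.39 and 1.11 points from the lowest to the highest class, and the interval lay above 0 in the lower 2. Windows 2 kb from members held these letters in 2.23%, all WT windows in 4.60%, weaker WT-only distal peaks in 6.32% and strong DKO-only distal peaks in 1.83%. The T-box letters were thus the one searched motif of another family that was more frequent in members than in shared peaks by more than counting error. The intervals are not adjusted for the number of motifs compared.

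A few motifs were less frequent in members than in shared peaks. The AP-1 letters TGAGTCA, bound by Fos and Jun proteins, were found in 14.2% of members (206) and 18.2% of shared peaks (554), a difference of -4.07 points (-6.28 to -1.76). The member share was lower in all 4 classes, with differences of -4.28, -5.50, -4.74 and -4.76 points, and the interval lay below 0 in the lower 2. The pair of an E-box end and a Gata site (CTG, 7 or 8 bases, then WGATAA), the element known from blood genes where Tal1 and Gata1 bind together, was found in 7.84% of members (114) and 12.7% of shared peaks (386). Its difference was -4.87 points pooled (-6.64 to -2.99) and -2.62, -4.75, -5.51 and -5.74 points by class, with an interval below 0 in the middle 2 classes. Weaker WT-only distal peaks held AP-1 letters in 14.6%, the pair in 7.01%, and the ETS letters CAGGAAGT and CCGGAAGT in 5.92% and 0.41%. All WT windows held AP-1 letters in 13.6% and the pair in 6.72%, and strong DKO-only distal peaks in 17.2% and 5.87%. In the windows 2 kb from members AP-1 letters stood in 8.35%. The ETS letters CAGGAAGT were found in 5.43% of members and 7.40% of shared peaks (-1.97 points; -3.42 to -0.42), and CCGGAAGT in 0.48% and 1.15% (-0.67 points; -1.18 to -0.07). The forkhead letters TGTTTAC (9.69% and 10.6%), the Meis letters TGACAG (40.7% and 40.5%), the TEAD letters GGAATG (32.9% and 35.1%), the Tcf and Sox letters AACAAAGG (4.19% and 4.41%) and the Oct letters ATTTGCAT (2.34% and 2.63%) had differences whose intervals include 0. A pair of motifs stood near their share 2 kb away, as the E-box CANNTG was found in 92.6% of members and in 93.3% of those windows, and the glucocorticoid receptor letters AGAACA in 36.0% and 37.6%. The full palindrome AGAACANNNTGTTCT was found in 2 members and in no shared peak.

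CpGs were few at the members, as at the other distal WT peaks. The median window held 5 CpGs (95% interval of the median 5 to 5), against 6 in shared peaks, 5 in weaker WT-only distal peaks and 9 in strong DKO-only distal peaks. Windows with 20 or more CpGs were 3.85% of members (56), 7.57% of shared peaks (-3.72 points; -5.04 to -2.29), 3.49% of weaker WT-only distal peaks (0.36 points; -0.61 to 1.54) and 24.2% of strong DKO-only peaks (-20.4 points; -24.2 to -16.8). Over all WT peaks the median was 8 CpGs, and 26.97% of windows held 20 or more. Over all DKO peaks these values were 21 and 51.11%. Both full lists include peaks within 1000 bp of a gene start, which the rule left out of the members. How far that choice accounts for the low CpG number of the members was not tested. The difference from shared peaks was not the same at all heights. It was -9.62 points (-12.6 to -6.84) at 10 to 12, -5.62 at 12 to 15, -0.38 at 15 to 20 and 4.29 (0.02 to 11.6) at 20 or more, so that in the tallest class CpG-rich windows were 8 of 97 members and 37 of 934 shared peaks. Only 26 members had no CpG. A CpG lay within 10 bp of 17.2% of the central WGATAA matches in members (215 of 1250), 22.3% in shared peaks (-5.07 points; -7.61 to -2.42), 18.7% in weaker WT-only distal peaks (-1.48 points; -3.76 to 0.96) and 25.8% in strong DKO-only peaks (-8.63 points; -13.8 to -3.85). Methylation itself was not measured in these lists.

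In the ES library, which received no Dex, the members were lower than the shared peaks as a set. The median ES height was 1.88 (1.80 to 1.96) in members and 2.46 (2.38 to 2.52) in shared peaks, beside 1.36 in weaker WT-only distal peaks and 1.68 over all WT peaks, and 16.8% of members (245) and 8.92% of shared peaks had an ES height under 1. The order turned among the tallest peaks. At heights of 20 or more the median ES height was 4.33 in the 97 members and 3.17 in the 934 shared peaks. An ES height of 5 or more, which the limit of enrichment allows only from a height of 15, was found in 44.3% (43 of 97) of these members and 27.2% (254 of 934) of the shared peaks, a difference of 17.1 points (7.21 to 27.4). At 15 to 20 the shares were 9.59% (21 of 219) and 5.34% (4.25 points; 0.50 to 9.09). Tall WT peaks without a DKO peak were thus more often tall in the WT ES library than tall peaks with one. A listed DKO peak had to reach at least 3 times the DKO ES height, so ES signal also enters the rule that chose the members. The DKO ES height at the members is not known here, and these shares stand as a description. The part of the ES signal in the height of the tall peaks was not tested.

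**Figure D3:**
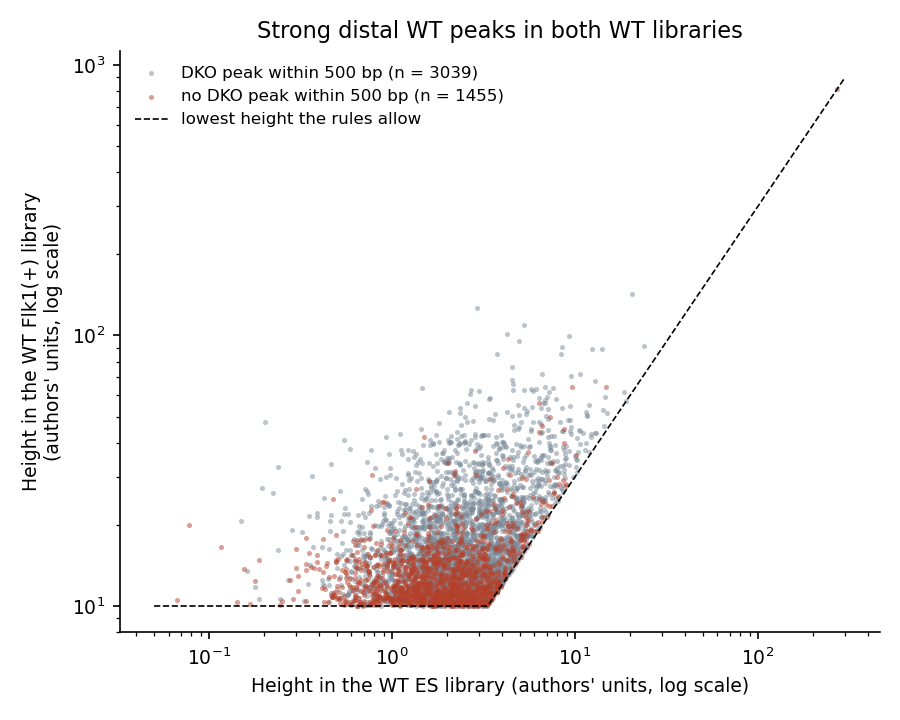
Height of each strong distal WT peak in the WT Flk1(+) library (y axis, log scale) against its height in the WT ES library (x axis, log scale), in the authors' units, for 1455 members and 3039 shared peaks. The dashed line is the lowest height that a minimum of 10 and an enrichment of 3 allow, and the single point at the upper right is the mitochondrial member (816 and 269).

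The tallest members were few. The member of height 816 lay on the mitochondrial genome (chrM:15359), 1.21 kb downstream of the start of *mt-Cytb*, with an ES height of 269 and an enrichment of 3.03. It is the only WT peak there, and no DKO peak is listed on that chromosome. The next 19 had heights of 64.6 to 30.5. All 20 held WGATAA, 17 of them within 50 bp of the position, and 12 had an ES height of 5 or more. Among the members of height 20 or more this was 43 of 97. Over all 1455 members it was 64, as the limit of enrichment allows none below a height of 15. By place, 14 lay between protein-coding genes, 5 in introns and 1 in a UTR, and 7 of the 20 had a DKO peak within 20 kb.

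The member in an intron of *Meis1*, a homeobox factor of blood and heart development, had a height of 64.5 and an ES height of 14.7, with a DKO peak 6091 bp away. The nearest protein-coding start there is that of *Gm16140*. The 2 overlapping matches of the *Meis1* member (AGATAAGATAA) are visible in the first sequence above. The member in an intron of *Tet3*, an enzyme that oxidises methylated cytosine, had a height of 40.1 and an ES height of 8.69. These tall intronic members, with that in an intron of *Acsbg1* near *Idh3a* (33.7 and 7.49), were high in both WT libraries. A further 2 tall intronic members were low in the ES library. The member in *Csmd1*, a large membrane protein gene, had a height of 37.4 and an ES height of 2.83, and lay 667 kb from the nearest DKO peak and 1002 kb from the nearest start, that of *Myom2*. The member in *Ehbp1*, 5.34 kb upstream of the homeobox gene *Otx1*, had 33.7 and 2.02. Of the tall members between genes, that 17.7 kb upstream of *Myo5b*, a myosin motor of vesicle transport, reached 49.8 (ES 7.34), that 31.4 kb upstream of the elongation factor gene *Eef1a1* 45.0 (ES 8.73), and that 16.1 kb upstream of *Cfc1*, a co-receptor of Nodal, 43.8 (ES 6.37). The member nearest *4933436C20Rik* (46.1), that upstream of *Fstl4* (36.0) and that upstream of *Ltc4s*, a leukotriene synthase (37.0), also had ES heights above 5. Nearest to *Cplx3*, *Sec14l4*, *Gm17310* and *Dars* were members of 35.0, 32.4, 30.6 and 30.5 with ES heights of 4.30, 4.05, 2.19 and 4.42. The tallest members thus differed widely in background, from enrichments of 3.03 at *mt-Cytb* and 3.57 at *Fstl4* to 28.1 at *Gm4858*.

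**Figure D4:**
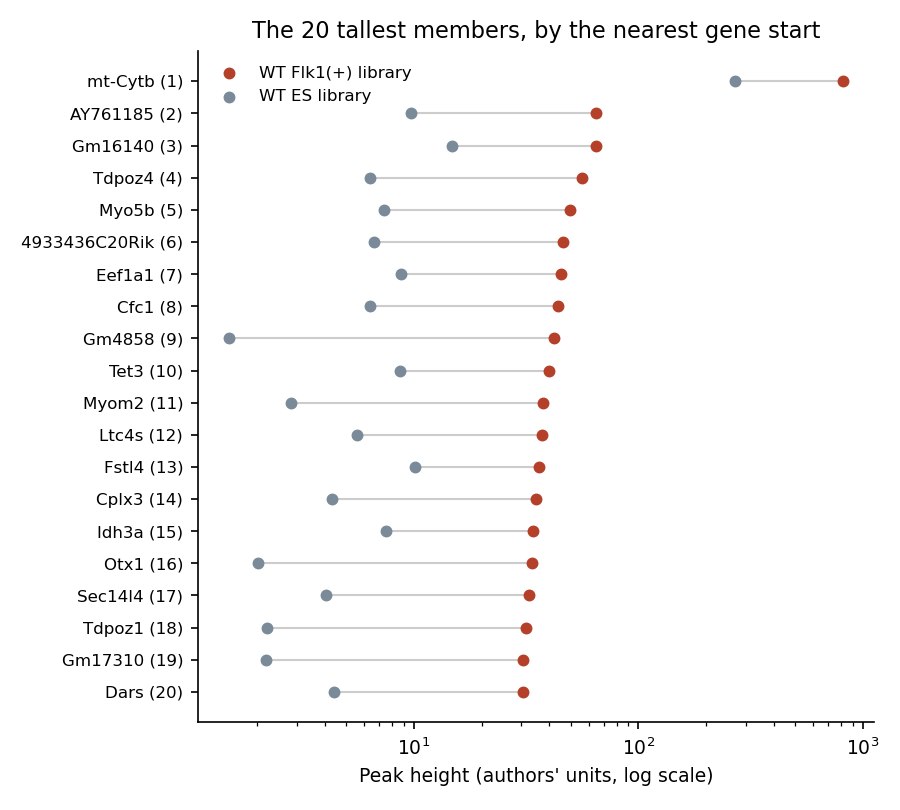
Heights of the 20 tallest members in the WT Flk1(+) and WT ES libraries (x axis, authors' units, log scale), named by the protein-coding gene with the nearest start and numbered from the tallest (y axis). The *mt-Cytb* member stands apart at 816 with an ES height of 269, and the ES heights of the other 19 lie between 1.49 and 14.7.

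Repeat-rich sequence was more common in members than in shared peaks. The deposited bases are printed in part in lower case, by which genome assemblies mark interspersed repeats and simple sequence. How these letters were set is not given in the sources used here. Lower-case letters made up a median of 5.19% of the member windows and 0.60% of the shared windows, and at least 50% of the window in 16.2% of members (236) and 11.1% of shared peaks (5.16 points; 3.02 to 7.41). At heights of 10 to 12 it was 15.2% of members (12.7 to 18.0) and 12.1% of shared peaks, and at 20 or more 22.7% (15.5 to 32.0) and 10.4% (8.59 to 12.5). The weaker WT-only distal peaks were close to the members, with 15.6% (0.63 points; -1.34 to 2.76) and a median of 6.39%. All letters were in lower case in 50 members (3.44%) and 51 shared peaks (1.68%), a difference of 1.76 points (0.79 to 2.90). Even so, the central 31 bases of 96.5% of members (1404) and 97.5% of shared peaks occurred once in mm9 on either strand. More than 1 copy was found for 3.51% of members and 2.47% of shared peaks (1.04 points; 0.00514 to 2.22), and for 8 of the 97 members and 26 of the 934 shared peaks of height 20 or more.

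Of the 20 tallest members 4 were in lower case throughout, 3 of them on chromosome 3 near *Tdpoz4*, *Gm4858* and *Tdpoz1*. Their heights were 56.3, 42.0 and 31.6, and their ES heights 6.37, 1.49 and 2.21. The sequences above near *Tdpoz4* and *Gm4858* show their likeness around the match TTATCA, and the members near *Gm4858* and *Tdpoz1* had central bases that occur 2 times in mm9. The nearest DKO peaks lay 619, 965 and 782 kb away. The second tallest member, 9.82 kb upstream of *AY761185* (chr8:22094247), was the other, with a height of 64.6, an ES height of 9.65 and a DKO peak at 1077 kb. Repeated sequence also linked lower members. The 20 bases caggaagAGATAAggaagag around the central match were the same in 7 members on chromosomes 4, 5, 6, 10 and 12, with heights of 10.6 to 16.3. They stood in 31 WT windows and 9 DKO windows in all. In all, 0.76% of members (11; 0.42 to 1.35) and 0.95% of shared peaks (29; 0.67 to 1.37) had their central match in a run of 20 bases found again in a distant peak of the same set.

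Members lay farther from annotated gene starts than shared peaks, at distances near those of the weaker WT-only distal peaks. By GENCODE vM1 positions of protein-coding genes, 57.7% (839) lay between genes, 39.7% (577) in introns, 1.58% (23) in UTRs and 1.10% (16) in coding sequence. The difference from shared peaks was -3.48 points in introns (-6.53 to -0.40) and 2.84 points between genes (-0.26 to 5.92), and that from strong DKO-only distal peaks -4.96 points in coding sequence (-7.32 to -3.11). A gene listed by the authors within 5 kb was present for 47.0% of members (684) and 51.1% of shared peaks (-4.06 points; -7.17 to -0.94). The median distance to the nearest annotated start was 45.5 kb in members and 38.1 kb in shared peaks, and 29.3% and 24.4% lay over 100 kb from any (5.00 points; 2.23 to 7.82). In the weaker WT-only distal peaks the median was 46.6 kb, and 30.2% lay over 100 kb away (-0.88 points; -3.38 to 1.70). Strong DKO-only distal peaks were nearer, with a median of 23.0 kb. GENCODE also placed a start within 1 kb of 21 members, which the RefSeq rule had not.

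A member within 5 kb of the body was found for 681 of 22238 protein-coding genes, or 3.06%. Of these genes, 608 had 1 member, 58 had 2 and 15 had 3 or more. Their median length was 81.9 kb against 15.5 kb for all genes, so the genes with a member were long ones. *Gm20388*, a single transcript model of 4.43 Mb over many other genes, had 10 members, 41 shared peaks and 275 DKO peaks. *Auts2*, a long gene of neural development, had 9 members and 7 shared peaks, with 40 WT peaks and 14 DKO peaks in all. *Csmd1* had 5 members, no shared strong peak, 8 WT peaks and 1 DKO peak. There were 4 members each at *Accn1*, an acid-sensing ion channel, *Foxn3*, a forkhead factor, *Odz4*, a teneurin, *Pdzrn4* and *Slc44a5*. *Foxn3* and *Odz4* had no shared strong peak, with 9 and 19 WT peaks and 4 and 3 DKO peaks. There were 3 members each at *Cacna2d2*, *Chst11*, *Frmd4a*, *Grip1*, *Plxna4*, *Reln* and *Slit3*. At *Reln*, which encodes the secreted protein reelin, 6 WT peaks were listed and no DKO peak.

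In the lists of heart, vessel, blood and signaling genes, more genes had a shared strong distal peak than a member. Shared peaks were also the larger set, with 3039 against 1455 members. Of 173 genes in 10 lists, 13 (7.51%) had a member within 5 kb, beside 3.06% of all genes, and 46 (26.6%) had a shared strong distal peak, beside 5.99% of all genes. The lists were drawn up for Gata4 and mesoderm with earlier results of these data known, and their genes differ from all genes in length, so the shares are a description. At least 1 member was found for 2 of 22 cardiac transcription regulators, 3 of 22 vessel genes, 3 of 18 blood genes, 2 of 25 BMP and Wnt pathway genes, 3 of 15 growth factors and receptors of mesoderm and 1 of 10 DNA methylation enzymes. No member lay at the 22 endoderm genes, the 22 contractile genes, the 13 pluripotency genes or the 11 glucocorticoid receptor targets, where 5, 7, 2 and 2 genes had a shared peak.

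At heart and blood regulators the members had heights of 10.6 to 16.4. The member 4.09 kb upstream of *Mesp1*, a factor of the earliest heart mesoderm, had a height of 11.3 and an ES height of 2.07, and held no WGATAA. *Zfpm1*, which encodes the Gata cofactor Fog1 and stands in the heart and blood lists, had a member of height 10.6 (ES 0.81) in an intron beside 9 shared peaks. *Nfe2*, an erythroid and platelet factor, had one of 16.4 (ES 4.11), and *Ikzf1*, the lymphoid factor Ikaros, one of 11.4 (ES 0.78). Both of these held 2 matches in the window. Vessel genes had members in introns of the ETS factors *Erg* (11.0, ES 0.48) and *Ets1* (12.2, ES 1.58) and of *Pecam1* (10.7, ES 3.25), an adhesion molecule of endothelial cells. The *Pecam1* member had a DKO peak at 502 bp, the closest of all members, and those of *Mesp1* and *Zfpm1* had one at 662 and 751 bp.

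At signaling genes, members lay in introns of *Bmp4* (13.5, ES 1.57), a growth factor of mesoderm, and of *Smad6* (10.7, ES 3.49), an inhibitor of BMP signals. The first held no WGATAA and the second 1, and DKO peaks lay at 1190 and 812 bp. *Fgfr1* had an intronic member of 10.5 (ES 2.41), and *Fgf8* one of 10.0 (ES 3.11) outside the gene, 9.44 kb from its start. The 2 members counted for *Fgfr2* (13.2 and 15.3) lie within an annotated model of 3.01 Mb. They stand 941 and 2320 kb upstream of the other 28 transcripts of this gene, which is on the minus strand. Without models over 2.5 Mb the count of listed genes with a member was 12. *Tet3* (40.1, ES 8.69) was the only listed gene with a member taller than 20. Of the 94 genes that the study chose for a stronger response to Gata4 in DKO mesoderm, 92 were placed on the genome. Their median length was 24.7 kb, against 15.5 kb for all genes, so their shares too are a description. A shared peak lay at 13 of the 92 (14.1%, beside 5.99% of all genes). Members lay at 6 of the 92 (6.52%, beside 3.06% of all genes). These were *Ccdc19* (12.1), *Dock5* (15.4), a regulator of Rac, *Fhod3* (11.8), a formin of heart muscle, *Mertk* (11.6), a receptor kinase, *Myo5b* (13.8) and *Ptprb* (12.1), a phosphatase of endothelial cells. Of the 20 members at listed genes 16 held WGATAA, 12 within 50 bp of the position, and 5 had an ES height under 1.

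**Figure D5:**
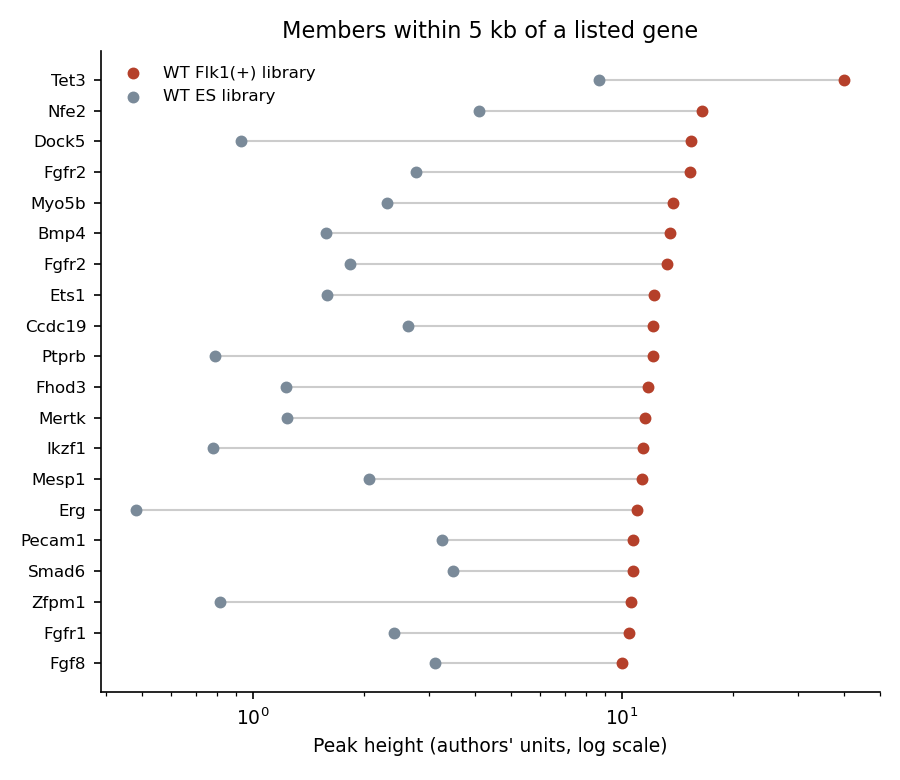
Heights of the 20 members within 5 kb of a listed gene in the WT Flk1(+) and WT ES libraries (x axis, authors' units, log scale), by gene (y axis; *Fgfr2* has 2). Apart from *Tet3* at 40.1, the heights lie between 10.0 and 16.4.

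A smaller share of members than of shared peaks had another WT peak nearby. Another WT peak lay within 5 kb of 31.8% of members (462) and 41.3% of shared peaks, and another member within 5 kb of 6.25% (91). A DKO peak lay within 5 kb of 16.5% of members (240), within 20 kb of 39.7% and within 100 kb of 75.7%, with a median distance of 31.7 kb. Of the weaker WT-only distal peaks, 17.6% had a DKO peak within 5 kb.

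Every autosome and the X chromosome had members. The share of strong distal WT peaks without a DKO peak lay between 22.2% on the X chromosome (10 of 45; 12.5 to 36.3) and 41.4% on chromosome 12 (67 of 162; 34.1 to 49.1), and the intervals of these extremes overlap. Chromosomes 11 (142 members) and 8 (138) had the most, with 11.7 and 10.5 members per 10 Mb against a median of 5.18 over chromosomes. The same chromosomes had the most shared peaks, with 25.9 and 22.5 per 10 Mb against a median of 10.8. The median ES height of the members was 2.32 on chromosome 8, the highest, 2.24 on chromosome 17, 2.19 on chromosome 11 and 2.16 on chromosome 18, against 1.83 as the median over chromosomes. Chromosomes 17 and 18 had 4.72 and 4.41 members per 10 Mb, below the median. The X chromosome had 0.60 members per 10 Mb and a median ES height of 0.91.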

How the data were processed

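Chromatin bound by Gata4 was sequenced by the authors in 4 libraries, 1 per condition. Reads were mapped to mm9 by a company, and the authors called peaks with DNAnexus tools, with the ES cells of each genotype as background. The submitters' processing notes also name CASAVA 1.8.1 and cutadapt without a role. The deposited lists give for each peak a signal, the height of the profile in the Flk1(+) and the ES library, and the authors' ratio of both, in which an ES height under 1 counts as 1. Distances to RefSeq genes and 501 bases around each position were also deposited. No column names a library, so the genotype of a list was taken from its peak number as stated by the study.

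The members and gene lists were chosen with earlier results of these data known. All 43143 windows equalled mm9 in letters. Motifs were searched on both strands, also in windows 2 kb away. Shares carry 95% Wilson intervals, differences Newcombe intervals and medians order-statistic intervals, which cover counting error over peaks only. Genes came from GENCODE vM1, the longest entry per symbol, within 5 kb of the body. Named were the genes nearest to the 20 tallest members and to the 5 with most matches, the 10 genes with most members and their ties, and every listed gene with a member. Motif shares by height class, copies in mm9, shared runs of bases and chromosome densities were added after the data were seen. Alternatives changed the height, distance, motif, window and gene limits. The steps were tested on simulated data. Matplotlib 3.10.9, pysam 0.24.0, pandas 2.3.3, SciPy 1.17.1 and NumPy 2.4.6 were run under Python 3.11.15.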

Additional observations from a re-analysis of the deposited data

How the results depend on the processing

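With 1 library per condition no library could be left out. No paired analysis was possible because each condition has 1 library. Of 83 values computed under other settings, 56 stayed within the interval of the reported value or within 1.5 times a reported count. At a height minimum of 8 there were 2919 members with WGATAA in 82.1%, a median ES height of 1.73 and 23 listed genes with a member. At a minimum of 15 there were 316, with 88.6%, 2.62, 42.7% near a gene and 3 listed genes. An enrichment of 6 or more left 826 members, with 88.9%, a median of 4 CpGs, an ES height of 1.30 and 6 listed genes. Without a DKO peak within 5000 bp, 44.4% were near a gene and 7 listed genes had a member, and without a gene start within 5000 bp 40.7% were near a gene. The motif WGATAR gave 92.4% of members, a difference from shared peaks of 0.27 points and 46.7% of matches at the centre. In the central 200 bp the share with WGATAA was 78.5% and the median CpG number 2. Within 20 kb there were a gene for 62.7% of members and 23 listed genes, and within 100 kb of the start 36. Chosen after seeing the data, windows less than 50% in lower case gave a median of 6 CpGs, and weighting by height class turned the difference in WGATAA share to 2.11 points. The interval of that difference lay below 0 without a DKO peak within 250 bp (-2.90 points), at an enrichment of 6 (-2.95) and in the central 200 bp (-3.15).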

Other observations

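Some stretches of the genome held several WT peaks and no DKO peak. On chromosome 8, the 1.67 Mb between the DKO peaks at 15392336 and 17064983 held 11 WT peaks, of which 7 were members, and overlapped *Csmd1*. Its 6.58 WT peaks per Mb were fewer than the 10.4 of the whole chromosome. On chromosome 7, the 3.53 Mb between the DKO peaks at 100032543 and 103565997 held 19 WT peaks with 4 members, or 5.38 WT peaks per Mb against 7.49 on the chromosome. On chromosome 6, the 837 kb from 31592678 to 32429409 overlapped *Plxna4* and held 10 WT peaks with 5 members, or 11.95 per Mb against 7.61. The longest run of consecutive strong distal WT peaks that were all members also lay on chromosome 8, with 10 members from 120290069 to 120726829, where 15 WT peaks and 4 DKO peaks are listed. It overlaps 207 kb without a DKO peak, from 120600674 to 120807755, with 9 WT peaks and 6 members, or 43.5 WT peaks per Mb. These stretches were chosen after their values were seen, from positions in 2 libraries, and were not tested.

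A further 42 members lay within 500 bp of another member, so that a window of 501 bp shares bases with its neighbour there. A shared WT peak stood within 1000 bp of 22 members and within 5000 bp of 146.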
